A study of Homo sapiens with 12 samples.

Results

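Small nucleolar RNAs (snoRNAs), small Cajal body RNAs (scaRNAs) and the host genes that carry snoRNAs in their introns were followed in LNCaP cells, a human prostate cancer line that responds to androgen. Members were genes whose array symbol starts with SNORD, SNORA, SCARNA or SNHG, plus GAS5. A gene was kept when a probe of it was detected above background (detection p under 0.05) on at least 3 of the 12 arrays, and its brightest kept probe stood for it. Of 318 such genes on the array (326 probes), 116 were kept among 11517 genes tested. The kept genes were 53 of 176 box C/D snoRNAs, 42 of 101 box H/ACA snoRNAs, 8 of 24 scaRNAs and 13 of 17 host genes.

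Total RNA was measured on Illumina HumanHT-12 V4 arrays in 4 groups of 3. All cells, controls included, first spent 48 h in medium without phenol red and with charcoal-stripped serum, which removes steroids. They were then treated for 48 h with the solvents ethanol and DMSO (vehicle), with the synthetic androgen R1881 at 10 nM, with Torin 1, an inhibitor of both mTOR kinase complexes, at 100 nM, or with R1881 and Torin 1 together (both drugs). The labels do not say whether the 3 samples of a group were separate cultures, so each p-value reflects only how these samples varied, which may be technical variation. A single cell line was used at 1 time point. Between 16681 and 18868 of 47323 probes were detected per array. The luminal epithelial genes KRT8, KRT18, FOLH1 and HOXB13 were detected on all 12 arrays. KLK3 and KLK2, also luminal markers, were each detected on 7: all 3 with R1881, all 3 with both drugs, 1 with Torin 1 and none with vehicle. The basal markers KRT5 and KRT14 and the T-cell marker CD3E were detected on none, and ACTA2, VIM, TAGLN and CD68, which also mark other cell types, were detected on all 12. Of the other stromal and immune markers looked at, COL1A1 and PTPRC were detected on 3 arrays each, MS4A1 on 2 and DCN on 1.

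Box C/D snoRNAs guide ribose methylation of ribosomal RNA, box H/ACA snoRNAs guide pseudouridylation, and scaRNAs do the same for the small nuclear RNAs of the spliceosome. Most human snoRNAs are cut from the spliced-out introns of host genes, many of which encode ribosomal proteins or are noncoding SNHG genes, whereas U3 (SNORD3 genes) and U13 (SNORD13) are transcribed from promoters of their own. Many hosts begin with a terminal oligopyrimidine (TOP) tract, the element through which mTOR controls translation of ribosomal protein mRNAs, and spliced SNHG and GAS5 transcripts are known substrates of nonsense-mediated decay. Standard labelling starts from poly(A) tails, and silica columns recover very short RNA poorly, so a snoRNA probe may read the mature RNA, a precursor or host-derived RNA. Which of these it read was not tested.

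The start regions of the main host genes show how far the TOP feature is shared. Each line gives 100 bases on the gene's strand, 5′ to 3′, from 50 bases before the RefSeq start (GRCh38.p14), and capitals mark the unbroken pyrimidine run that begins with a C at the start.
SNHG5 (chr6:85678684-85678783, minus strand): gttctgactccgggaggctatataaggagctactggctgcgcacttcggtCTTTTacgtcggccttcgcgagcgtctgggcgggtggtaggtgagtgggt
SNHG7 (chr9:136728135-136728234, minus strand): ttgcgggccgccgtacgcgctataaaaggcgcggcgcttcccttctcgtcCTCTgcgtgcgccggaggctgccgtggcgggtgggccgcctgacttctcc
SNHG8 (chr4:118278712-118278811, plus strand): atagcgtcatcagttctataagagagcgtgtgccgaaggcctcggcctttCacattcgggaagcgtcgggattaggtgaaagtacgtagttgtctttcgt
SNHG32 (chr6:31834866-31834965, plus strand): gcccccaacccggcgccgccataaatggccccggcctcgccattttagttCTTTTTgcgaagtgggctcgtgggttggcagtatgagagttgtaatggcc
SNHG4 (chr5:139274051-139274150, plus strand): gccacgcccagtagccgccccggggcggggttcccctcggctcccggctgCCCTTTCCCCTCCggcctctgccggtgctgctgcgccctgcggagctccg
SNHG1 (chr11:62855836-62855935, minus strand): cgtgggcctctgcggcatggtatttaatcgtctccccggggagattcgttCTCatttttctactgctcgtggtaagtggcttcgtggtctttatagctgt
SNHG11 (chr20:38446604-38446703, plus strand): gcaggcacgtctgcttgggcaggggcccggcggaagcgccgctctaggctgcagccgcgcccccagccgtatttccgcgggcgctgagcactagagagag
A RefSeq promoter was found for 10 of the 116 kept genes, all of them SNHG genes. Of these 10, 6 start with C (60%), against 14.7% of 35114 RefSeq promoters and 64.6% of 79 ribosomal protein promoters. A C followed by at least 4 pyrimidines, a plain stand-in for a TOP start read on the gene's strand, was found at 3 of the 10 (30%: SNHG4, SNHG5 and SNHG32), at 4.07% of all promoters and at 58.2% of ribosomal protein promoters. The letters TATAA lie in the 50 bases upstream of SNHG5, SNHG7 and SNHG8 (30% of the 10, against 4.74% of all and 10.1% of ribosomal protein promoters, gene strand only). SNHG11 has neither feature. A match describes the letters only.

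Fewer members were detected with both drugs than in any other group. The number detected per array was 97, 101 and 108 with vehicle, 95, 97 and 90 with R1881, 91, 105 and 96 with Torin 1, and 72, 82 and 82 with both drugs. The both-drug arrays did not overlap the others. Over all probes the both-drug group also had the lowest mean, 16895 ± 268 (SD, n = 3). The other means were 18307 ± 595 with vehicle, 17479 ± 556 with R1881 and 18016 ± 885 with Torin 1. Over all probes, though, single arrays did overlap. Both drugs gave 16681 to 17195, R1881 replicate 3 gave 16837 and Torin 1 replicate 1 gave 17012. Of the 318 genes, 54 were detected on all 12 arrays, 30 on 1 or 2 arrays and 172 on none. The 7 genes detected on exactly 3 arrays had mean normalized log2 levels of 4.59 to 4.65, and the 9 detected on exactly 2 had 4.47 to 4.64. SNORD14B and SNORD97 were kept through the Torin 1 group alone and SNORA16A through the vehicle group alone, so these had to differ in that group. SNORD3C, detected on 3 Torin 1 arrays and 1 both-drug array, was likewise kept only through arrays with Torin 1. SNORA79, SNORA17A and SNORD100 were detected only on arrays without R1881. SNORA11 was detected only on arrays with R1881, and SNORD88B on these and 1 Torin 1 array. For these genes the detection rule favoured a difference with R1881.

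GAS5, a host gene named for its rise in growth-arrested cells, was not measured. Its probe had signals of 93.2 to 111.8 and detection p of 0.0584 to 0.738, above the threshold on all 12 arrays. SNORD80, a box C/D snoRNA of a GAS5 intron, was kept.

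The counts of members that passed limma's test (adjusted p under 0.05 over 11517 genes) leaned to falls wherever both drugs were given. With R1881 against vehicle 5 members rose and 11 fell, where 15.8% of all genes tested rose and 21.5% fell. With Torin 1 against vehicle 20 rose and 13 fell, that is 17.2% and 11.2% of the members, against 16.2% and 15.7% of all genes, shares near that background. With both drugs against R1881, 13 rose (11.2%, background 23.1%) and 35 fell (30.2%, background 22.3%). Against Torin 1, both drugs gave 3 rises (2.59%, background 18.7%) and 43 falls (37.1%, background 26.3%). Against vehicle they gave 9 rises (7.76%, background 22.7%) and 38 falls (32.8%, background 28.1%). The interaction is the change with R1881 in cells given Torin 1, minus the same change in cells without Torin 1. Here none was positive (background 7.87%) and 14 were negative (12.1%, background 7.08%).

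The median log2 change of the 116 members was -0.054 with R1881, 0.045 with Torin 1, -0.11, -0.22 and -0.17 for both drugs set against R1881, Torin 1 and vehicle, and -0.21 in the interaction, where 87 of 116 lay below 0. The medians over all genes were -0.034, 0.018, 0.011, -0.054, -0.023 and -0.006. Scaling moved some of this. With median scaling in place of quantile normalization the all-gene median itself shifted to -0.18 for R1881, and to -0.16 and -0.20 for both drugs set against Torin 1 and vehicle, and the member medians were -0.17, -0.35 and -0.27. Median scaling gave 2 rises and 27 falls with R1881, and 1 positive and 3 negative interactions in place of 0 and 14. Under cyclic loess the split was 5 and 12 for R1881 and 1 and 12 in the interaction. Shares over all genes were not counted under either scaling, so these counts have no background beside them. The member medians of the 3 both-drug comparisons lay below 0 under both of these scalings.

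The falls with both drugs against Torin 1 were spread over the classes. Of 13 host genes 1 rose and 6 fell, beside 18.7% rises and 26.3% falls over all genes. Of 53 box C/D snoRNAs none rose and 22 fell (median log2 -0.30), and of 42 box H/ACA snoRNAs 1 rose and 14 fell (median -0.20). Of 8 scaRNAs 1 rose and 1 fell. With Torin 1 alone 7 box C/D snoRNAs rose and 5 fell, and 7 box H/ACA snoRNAs rose and 6 fell, where 16.2% and 15.7% of all genes did. Among the 54 members detected on all 12 arrays, 2 rose and 26 fell with both drugs against Torin 1 (median -0.33). Members that did not pass ranged from -0.35 to 0.33 in log2 with R1881, from -0.33 to 0.51 with Torin 1 and from -0.59 to 0.26 with both drugs against Torin 1.

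**Figure D1:**
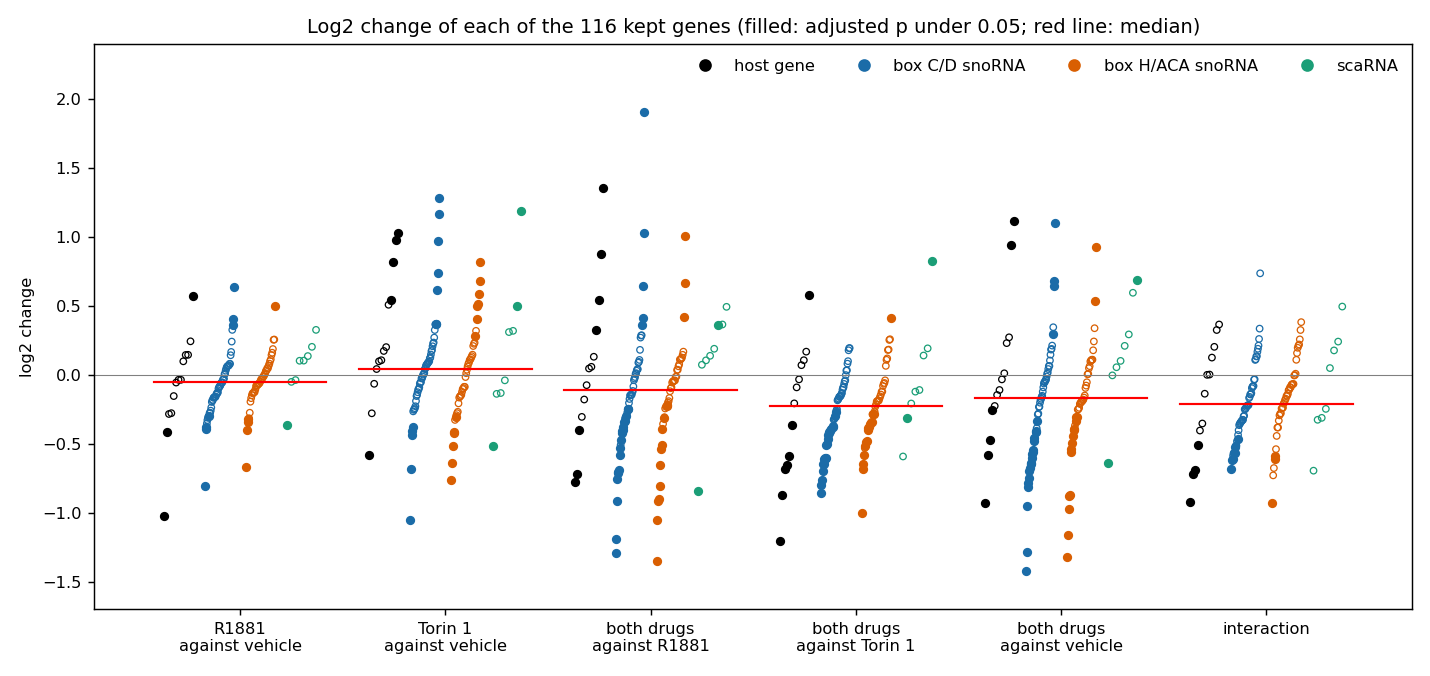
Log2 change (vertical axis) of each of the 116 kept genes in the 5 two-group comparisons and the interaction (horizontal axis), by class; filled points have an adjusted p under 0.05, open points do not, and the red line is the median of all members. The largest rise is that of SNORD13 with both drugs against R1881 (log2 1.90), and the medians of the last 4 columns lie between -0.22 and -0.11.

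The 4 kept snoRNAs with promoters of their own passed the test as higher with Torin 1. They were put together as a set after their values were seen. SNORD13, which encodes U13, a guide for base acetylation in small-subunit rRNA, had normalized log2 levels of 7.27, 6.89 and 7.17 with vehicle, 6.14, 6.62 and 6.16 with R1881, 8.62, 7.93 and 8.28 with Torin 1, and 8.29, 8.20 and 8.15 with both drugs. All arrays with Torin 1 lay above all arrays without it, and the R1881 arrays lay below the vehicle arrays. SNORD13 fell 1.74-fold with R1881 (log2 -0.80 ± 0.17, SE, adjusted p = 0.0019), rose 2.24-fold with Torin 1 (1.17 ± 0.17, adjusted p = 0.00017) and rose 3.74-fold with both drugs against R1881 (1.90 ± 0.17, adjusted p = 9.5e-07). Between both drugs and Torin 1 its log2 difference was -0.065 (95% interval from the model -0.43 to 0.30). Its interaction of 0.74 ± 0.24 missed the threshold (adjusted p = 0.053). The array reads RNA pooled from all cells, so less RNA per cell and fewer cells that hold it cannot be told apart.

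SNORD3A, SNORD3C and SNORD3D are near-identical copies of U3, the snoRNA that takes part in the early cleavages of the rRNA precursor, so their probes may share RNA. SNORD3D stood at log2 5.36, 5.73 and 5.53 with vehicle, 4.74, 5.54 and 5.28 with R1881, 6.91, 6.83 and 6.72 with Torin 1, and 6.09, 6.29 and 6.28 with both drugs. The Torin 1 arrays were highest, the both-drug arrays came next, and vehicle and R1881 overlapped. With both drugs against R1881 it rose 2.04-fold (log2 1.03 ± 0.16, adjusted p = 0.00017), and against Torin 1 it fell 1.52-fold (-0.60 ± 0.16, adjusted p = 0.0083). SNORD3A stood at 5.56, 5.45 and 5.90 with vehicle, 5.55, 5.78 and 5.59 with R1881, 6.84, 6.39 and 6.57 with Torin 1, and 6.21, 6.29 and 6.35 with both drugs. Arrays with and without Torin 1 did not overlap. It rose 1.96-fold with Torin 1 (0.97 ± 0.13, adjusted p = 9.1e-05) and 1.56-fold with both drugs against R1881 (0.64 ± 0.13, adjusted p = 0.0011). SNORD3C was detected on no vehicle or R1881 array and was at least 1.44-fold higher with Torin 1 (adjusted p = 0.0021). With both drugs it was at least 1.06-fold higher than with R1881 (adjusted p = 0.036), a call lost with median scaling and cyclic loess and on leaving out replicate 1 or 3 of R1881 or replicate 2 or 3 of both drugs (adjusted p 0.055 to 0.14 without 1 array). The fall against Torin 1 (-0.40, adjusted p = 0.045) was lost on leaving out any vehicle replicate, replicate 3 of R1881 or Torin 1, or replicate 1 or 2 of both drugs (adjusted p 0.051 to 0.21). SNORD3C was kept through arrays with Torin 1 only, so its rise follows from the detection rule, and nothing is read from the count of the set. SNORD13, SNORD3A and SNORD3D were detected in all 4 groups.

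**Figure D2:**
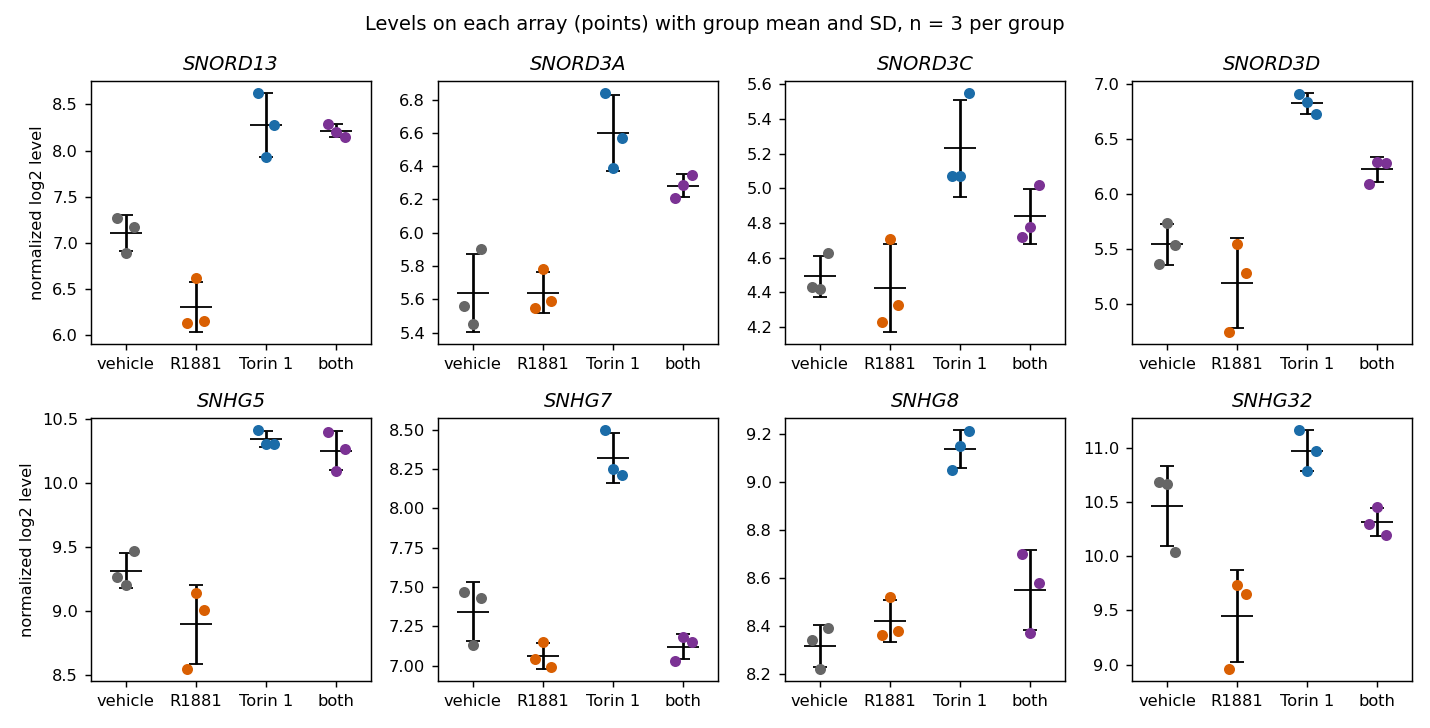
Normalized log2 level (vertical axis, a separate range in each panel) on each array (points) in the 4 groups (horizontal axis), with group mean and SD (bars, n = 3), for the 4 snoRNAs with their own promoters and 4 SNHG host genes. In the SNORD13 panel the 6 arrays with Torin 1 lie at 7.93 or above and the 6 without at 7.27 or below, while in the SNHG7 panel the Torin 1 arrays stand alone at 8.21 to 8.50.

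Of the 13 kept host genes 4 rose and 1 fell with Torin 1, and 1 rose and 6 fell when R1881 was added to Torin 1 (background 16.2% and 15.7%, then 18.7% and 26.3%). SNHG5, host of the SNORD50 snoRNAs and one of the 3 genes with a TOP-like start above, stood at log2 9.27, 9.21 and 9.47 with vehicle, 8.55, 9.14 and 9.01 with R1881, 10.42, 10.31 and 10.31 with Torin 1, and 10.40, 10.10 and 10.27 with both drugs. Every array with Torin 1 lay above every array without it. It rose 2.05-fold with Torin 1 (log2 1.03 ± 0.14, adjusted p = 7.9e-05) and 2.56-fold with both drugs against R1881 (1.36 ± 0.14, adjusted p = 3.1e-06), and its other kept probe gave 1.19 and 1.35. The fall with R1881 (-0.42 ± 0.14, adjusted p = 0.027) was lost on leaving out vehicle replicate 3 or R1881 replicate 1 (adjusted p 0.10 to 0.11).

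By its brightest probe SNHG7, host of SNORA17 and SNORA43, rose with Torin 1 when R1881 was absent and not when it was present. Its levels were 7.47, 7.13 and 7.43 with vehicle, 7.04, 7.15 and 6.99 with R1881, 8.50, 8.25 and 8.21 with Torin 1, and 7.03, 7.18 and 7.15 with both drugs. The Torin 1 arrays stood above all others, and both drugs overlapped R1881. The rise with Torin 1 was 1.97-fold (log2 0.98 ± 0.11, adjusted p = 1.4e-05), the change with both drugs against R1881 was 0.059 (95% interval -0.17 to 0.29), and the interaction was -0.92 ± 0.15 (adjusted p = 0.0012). The other kept probes of SNHG7 did not all show this. One gave 0.59 for Torin 1 against vehicle and -0.64 for the interaction, and the other, detected on 8 arrays, showed no rise with Torin 1 (-0.025) and an interaction of -0.16. SNHG8, host of SNORA24, was also highest with Torin 1, with levels of 8.34, 8.22 and 8.39 with vehicle, 8.36, 8.52 and 8.38 with R1881, 9.05, 9.15 and 9.21 with Torin 1, and 8.70, 8.37 and 8.58 with both drugs. It rose 1.76-fold with Torin 1 (0.82 ± 0.095, adjusted p = 2.6e-05) and its interaction was -0.69 ± 0.13 (adjusted p = 0.0040, or 0.054 with median scaling). SNHG8 lies outside the rule for named genes and was singled out after its values were seen.

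SNHG32, host of SNORD48 and SNORD52, was the member that fell furthest with R1881. Its levels were 10.69, 10.67 and 10.04 with vehicle, 8.96, 9.74 and 9.65 with R1881, 11.17, 10.79 and 10.97 with Torin 1, and 10.30, 10.46 and 10.20 with both drugs. The R1881 arrays lay below all others. It fell 2.03-fold with R1881 (log2 -1.02 ± 0.20, adjusted p = 0.0014) and was 1.83-fold higher with both drugs than with R1881 (0.88 ± 0.20, adjusted p = 0.0031), and its other kept probe gave -0.43 and 0.83. The fall with both drugs against Torin 1 (-0.65, adjusted p = 0.018) was lost on leaving out Torin 1 replicate 1 or both drugs replicate 3 (adjusted p 0.060 to 0.069), and the other probe gave 0.13.

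SNHG4, host of SNORA74A, and SNHG1, host of a run of box C/D snoRNAs, were lowest with both drugs. SNHG4 stood at 5.97, 5.75 and 6.07 with vehicle, 5.93, 5.74 and 5.65 with R1881, 5.96, 5.98 and 5.66 with Torin 1, and 4.67, 5.07 and 5.24 with both drugs, where 2 of 3 arrays detected it. The both-drug arrays lay below all others. It was 1.72-fold lower with both drugs than with R1881 (-0.78 ± 0.14, adjusted p = 0.00060) and 1.83-fold lower than with Torin 1 (-0.87 ± 0.14, adjusted p = 0.00024). SNHG1 stood at 9.13, 8.89 and 9.47 with vehicle, 9.0, 8.89 and 8.76 with R1881, 9.33, 9.33 and 9.12 with Torin 1, and 8.33, 8.74 and 8.67 with both drugs. It was again lowest with both drugs, with no overlap. SNHG1 fell 1.60-fold against Torin 1 (-0.68 ± 0.14, adjusted p = 0.0016) and 1.5-fold against vehicle (-0.58 ± 0.14, adjusted p = 0.0040), while its changes with R1881 alone (-0.28) and Torin 1 alone (0.099) did not pass.

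SNHG9 and SNHG11 moved in other ways. SNHG9, host of SNORA78, stood at 9.77, 9.76 and 9.92 with vehicle, 9.92, 10.22 and 10.05 with R1881, 9.23, 9.13 and 9.36 with Torin 1, and 9.43, 9.30 and 9.30 with both drugs. All arrays with Torin 1 lay below those without. It fell 1.5-fold with Torin 1 (-0.58 ± 0.094, adjusted p = 0.00043) and 1.65-fold with both drugs against R1881 (-0.72 ± 0.094, adjusted p = 3.4e-05). SNHG11, one of the 4 hosts whose promoter does not start with C, stood at 5.71, 5.64 and 5.83 with vehicle, 6.30, 6.34 and 6.27 with R1881, 6.60, 6.10 and 6.11 with Torin 1, and 6.87, 7.0 and 6.67 with both drugs. Its both-drug arrays were the highest and its vehicle arrays the lowest. It rose 1.49-fold with R1881 (0.58 ± 0.13, adjusted p = 0.0026), 1.46-fold with Torin 1 (0.54 ± 0.13, adjusted p = 0.0051) and 2.17-fold with both drugs against vehicle (1.12 ± 0.13, adjusted p = 5.4e-06), and its interaction was 0.001 (95% interval -0.38 to 0.39).

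SNORA7B, a box H/ACA snoRNA within RPL32P3, was, with SNHG11, the other member called higher in all 5 two-group comparisons. It stood at 5.90, 5.54 and 6.07 with vehicle, 6.34, 6.42 and 6.25 with R1881, 6.36, 6.37 and 6.32 with Torin 1, and 6.74, 6.83 and 6.72 with both drugs. The 2 groups given 1 drug overlapped between vehicle below and both drugs above. It rose 1.42-fold with R1881 (0.50 ± 0.11, adjusted p = 0.0031, or 0.079 with median scaling), 1.43-fold with Torin 1 (0.51 ± 0.11, adjusted p = 0.0036) and 1.90-fold with both drugs against vehicle (0.93 ± 0.11, adjusted p = 1.1e-05). The host was detected on 3 of the 12 arrays and did not pass the test in these comparisons.

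Few snoRNAs rose with R1881. SNORD88B and SNORD88C, box C/D snoRNAs of C19orf48P, were called higher, as was that host, which rose 2.66-fold (log2 1.41 ± 0.083, adjusted p = 1.4e-08). SNORD88B stood at 4.68, 4.53 and 4.66 with vehicle, 5.31, 5.16 and 5.32 with R1881, 4.69, 4.89 and 4.65 with Torin 1, and 4.84, 4.84 and 5.09 with both drugs. It was undetected on the vehicle arrays and at least 1.47-fold higher with R1881 (adjusted p = 0.00014). Apart from arrays given R1881, SNORD88B was detected on 1 Torin 1 array only. The detection rule thus favoured a rise with R1881, and nothing is read from that rise. SNORD88C stood at 4.89, 5.17 and 4.74 with vehicle, 5.40, 5.46 and 5.17 with R1881, 5.31, 4.91 and 4.87 with Torin 1, and 4.77, 5.12 and 4.72 with both drugs. Its rise was near the threshold (0.41 ± 0.15, adjusted p = 0.045) and was lost on leaving out replicate 1 or 3 of vehicle, 1 or 2 of R1881, 2 of Torin 1 or 1 of both drugs (adjusted p 0.052 to 0.16). With Torin 1 present the host still rose with R1881 (1.41 ± 0.083, adjusted p = 9.7e-09), whereas SNORD88B changed by 0.18 and SNORD88C by -0.16, neither past the test. For the difference itself the host's interaction was 0.001, that of SNORD88B -0.46 ± 0.14 (adjusted p = 0.036) and that of SNORD88C -0.57 ± 0.21 (adjusted p = 0.091). The SNORD88B interaction was lost on leaving out replicate 2 or 3 of vehicle, 1 or 3 of R1881, 2 of Torin 1, or 1 or 2 of both drugs (adjusted p 0.056 to 0.088). It contains the rise with R1881 that the detection rule favoured, so nothing is read from it or from its distance to the host's value.

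SNORA12, a box H/ACA snoRNA in CWF19L1, moved oppositely with the 2 drugs. It stood at 6.64, 6.42 and 6.90 with vehicle, 5.73, 6.31 and 5.91 with R1881, 7.37, 7.28 and 7.35 with Torin 1, and 6.91, 6.87 and 7.19 with both drugs. R1881 was lowest and Torin 1 highest, with no overlap of either with vehicle. It fell 1.59-fold with R1881 (-0.67 ± 0.15, adjusted p = 0.0030), rose 1.60-fold with Torin 1 (0.68 ± 0.15, adjusted p = 0.0036) and was 2.01-fold higher with both drugs than with R1881 (1.01 ± 0.15, adjusted p = 0.00010). Its host changed by -0.010, -0.20 and -0.11 in these comparisons, none past the test. Among scaRNAs, SCARNA9, a guide for U2 small nuclear RNA in CEP295, stood at 5.64, 5.31 and 5.90 with vehicle, 5.78, 5.97 and 5.41 with R1881, 6.47, 7.23 and 6.72 with Torin 1, and 5.87, 6.73 and 6.05 with both drugs. The Torin 1 arrays lay above those of vehicle and R1881, and the both-drug arrays spread across. It rose 2.28-fold with Torin 1 (1.19 ± 0.24, adjusted p = 0.0020). SCARNA11 was 1.77-fold higher with both drugs than with Torin 1 (0.82 ± 0.14, adjusted p = 0.00035), at 5.61, 5.30 and 5.41 against 4.46, 4.80 and 4.58, with 4.52, 4.98 and 4.74 under vehicle and 5.22, 4.80 and 5.2 under R1881. It was detected on 2 vehicle arrays and 1 Torin 1 array.

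SNORD16 and SNORA3A fell with Torin 1 while their host mRNAs did not pass the test. SNORD16, a box C/D snoRNA in an intron of the ribosomal protein gene RPL4, stood at 7.37, 7.08 and 7.25 with vehicle, 6.96, 7.17 and 7.17 with R1881, 6.18, 6.35 and 6.03 with Torin 1, and 5.57, 5.84 and 6.03 with both drugs. All 6 arrays with Torin 1 lay below the 6 without. It fell 2.07-fold with Torin 1 (log2 -1.05 ± 0.13, adjusted p = 3.4e-05) and 2.45-fold with both drugs against R1881 (-1.29 ± 0.13, adjusted p = 2.3e-06), where RPL4 mRNA changed by 0.069 ± 0.065 and 0.057 ± 0.065, neither past the test. The further fall with both drugs against Torin 1 (-0.37, adjusted p = 0.026) was lost on leaving out replicate 1 or 2 of Torin 1 or 1 of both drugs (adjusted p 0.054 to 0.12).

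SNORA3A and SNORA3B, box H/ACA snoRNAs of RPL27A, moved apart. SNORA3A stood at 5.83, 5.76 and 5.81 with vehicle, 5.88, 6.07 and 6.02 with R1881, 5.05, 5.07 and 4.99 with Torin 1, and 4.56, 4.68 and 4.67 with both drugs, where no array detected it. The 4 groups did not overlap, with R1881 highest, then vehicle, Torin 1 and both drugs. It fell 1.70-fold with Torin 1 (-0.76 ± 0.075, adjusted p = 5.2e-06) and was at least 2.29-fold lower with both drugs than with R1881 (adjusted p = 1.1e-08). SNORA3B instead rose 1.41-fold with Torin 1 (0.50 ± 0.14, adjusted p = 0.016), which was lost on leaving out vehicle replicate 2 or Torin 1 replicate 3 (adjusted p 0.050 to 0.061), and RPL27A mRNA changed by 0.001 (SE 0.066). SNORA3B was singled out after its values were seen.

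SNORD96A, in RACK1, which encodes a ribosome-bound scaffold protein, stood at 6.50, 6.24 and 6.45 with vehicle, 6.06, 6.40 and 6.46 with R1881, 5.73, 5.67 and 5.75 with Torin 1, and 5.19, 5.22 and 4.94 with both drugs. Again all arrays with Torin 1 were below those without, and both drugs were lowest. It fell 1.60-fold with Torin 1 (-0.68 ± 0.12, adjusted p = 0.00062) and 2.28-fold with both drugs against R1881 (-1.19 ± 0.12, adjusted p = 2.3e-06). SNORA6, in RPSA, a gene of the small ribosomal subunit, stood at 6.07, 5.81 and 5.96 with vehicle, 6.33, 5.78 and 5.97 with R1881, 5.69, 5.72 and 5.45 with Torin 1, and 4.64, 4.93 and 5.36 with both drugs, where it was detected on 2 of 3 arrays. It was lowest with both drugs, 2.08-fold below R1881 (-1.05 ± 0.17, adjusted p = 0.00021) and 1.56-fold below Torin 1 (-0.65 ± 0.17, adjusted p = 0.0071). The hosts RACK1 and RPSA had no kept probe of their own.

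Some snoRNAs of noncoding hosts were lowest with both drugs. Of 27 such snoRNAs 1 rose and 9 fell against Torin 1 (background 18.7% and 26.3%). SNORA61, in SNHG12, stood at 8.22, 7.57 and 8.22 with vehicle, 7.90, 8.04 and 7.84 with R1881, 8.0, 8.25 and 8.14 with Torin 1, and 6.82, 7.45 and 7.10 with both drugs. The both-drug arrays lay below all others. It was 1.74-fold lower than with R1881 (-0.80 ± 0.18, adjusted p = 0.0020) and 2.0-fold lower than with Torin 1 (-1.0 ± 0.18, adjusted p = 0.00036). SNORD49A, in SNHG29, stood at 5.38, 4.98 and 5.34 with vehicle, 5.11, 4.87 and 5.01 with R1881, 5.47, 5.57 and 5.35 with Torin 1, and 4.63, 4.69 and 4.66 with both drugs, where no array detected it. It was at least 1.59-fold lower with both drugs than with Torin 1 (adjusted p = 4.3e-05). SNORD31, in SNHG1, stood at 7.18, 6.34 and 7.08 with vehicle, 6.76, 6.74 and 6.28 with R1881, 7.0, 7.10 and 6.75 with Torin 1, and 5.67, 6.54 and 6.05 with both drugs. It fell 1.81-fold against Torin 1 (-0.86 ± 0.24, adjusted p = 0.0092), without overlap, and its fall against vehicle (-0.78, adjusted p = 0.014) was lost on leaving out replicate 1 or 3 of vehicle or 1 of both drugs (adjusted p 0.055 to 0.068).

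Further members were singled out after their values were seen. SNORD80, the snoRNA of GAS5, stood at 6.41, 6.17 and 6.23 with vehicle, 6.13, 6.39 and 6.22 with R1881, 6.42, 6.4 and 6.26 with Torin 1, and 5.76, 5.52 and 5.87 with both drugs. The 3 other groups overlapped and both drugs lay below them. It fell 1.44-fold against R1881 (-0.53 ± 0.11, adjusted p = 0.0011) and 1.56-fold against Torin 1 (-0.64 ± 0.11, adjusted p = 0.00023). SNORD65, in SNHG29 like SNORD49A, stood at 5.78, 5.89 and 5.62 with vehicle, 5.33, 5.52 and 5.26 with R1881, 5.71, 5.84 and 5.58 with Torin 1, and 4.92, 5.03 and 4.9 with both drugs. It fell with R1881 both without Torin 1 (-0.40 ± 0.099, adjusted p = 0.0064) and with it (-0.76 ± 0.099, adjusted p = 3.0e-05), and the interaction of -0.36 did not pass (adjusted p = 0.10). SNORA57, a box H/ACA snoRNA within CSKMT and LBHD1, stood at 6.49, 6.32 and 6.56 with vehicle, 6.27, 6.49 and 6.21 with R1881, 7.27, 7.21 and 7.34 with Torin 1, and 6.88, 7.05 and 7.04 with both drugs. All arrays with Torin 1 lay above those without, a rise of 1.76-fold with Torin 1 (0.82 ± 0.094, adjusted p = 2.6e-05) and of 1.59-fold with both drugs against R1881 (0.67 ± 0.094, adjusted p = 6.7e-05).

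SNORA10 of RPS2 and SNORD36A of RPL7A, both ribosomal protein genes, fell with both drugs against R1881 and did not pass with Torin 1 alone. SNORA10 stood at 6.2, 6.07 and 6.6 with vehicle, 6.37, 6.37 and 6.21 with R1881, 6.01, 6.06 and 5.92 with Torin 1, and 5.44, 5.54 and 5.28 with both drugs. SNORD36A stood at 6.86, 6.65 and 6.84 with vehicle, 6.91, 6.84 and 6.79 with R1881, 6.64, 6.63 and 6.52 with Torin 1, and 5.93, 6.15 and 6.19 with both drugs. In both genes the both-drug arrays were lowest, without overlap. SNORA10 fell 1.86-fold with both drugs against R1881 (-0.90 ± 0.12, adjusted p = 4.6e-05) and changed by -0.29 with Torin 1 alone (adjusted p = 0.084). SNORD36A fell 1.69-fold (-0.76 ± 0.090, adjusted p = 1.5e-05) and changed by -0.19 (adjusted p = 0.13). With both drugs against R1881, RPS2 mRNA changed by -0.23 (SE 0.097) and RPL7A mRNA by 0.021 (SE 0.35), neither past the test. The RPL7A error is too wide to show an unchanged host. RPS2 did pass as lower with R1881 (-0.29, adjusted p = 0.032), with Torin 1 (-0.37, adjusted p = 0.010) and with both drugs against vehicle (-0.52, adjusted p = 0.00052). SNORA10 also fell with both drugs against vehicle (-0.87).

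Set beside their hosts, most snoRNAs that passed the test did so without a matching host call, but few matches may be expected of any gene pairs. With Torin 1, 16.2% of all genes rose and 15.7% fell. The shares were 23.1% and 22.3% for both drugs against R1881, 18.7% and 26.3% against Torin 1, and 7.87% and 7.08% in the interaction. Matches were not compared with those of unrelated genes, so nothing is read from the counts below. Hosts were taken from textbook pairs and RefSeq gene positions, and 75 snoRNAs had 1 measured host (51 hosts, so some pairs share a host). With Torin 1, 16 of these snoRNAs and the hosts of 25 passed: 4 pairs passed in the same direction, 1 in opposite directions, and 11 in the snoRNA alone. With both drugs against R1881, 3 pairs passed in the same direction and 6 in opposite directions. Against Torin 1, with both drugs, 10 passed in the same direction, 1 oppositely and 16 in the snoRNA alone. In the interaction 7 snoRNAs and the hosts of 11 passed, and no pair passed on both sides. Of 31 snoRNAs within ribosomal protein genes, 14 fell and none rose with both drugs against Torin 1 (median log2 -0.32), while of their 16 measured hosts 2 fell and none rose (median -0.15), beside 26.3% falls and a median of -0.054 over all genes. In the interaction the same snoRNAs gave 6 negative calls (median -0.30) and the hosts 0 (median 0.046). With median scaling these became 20 and 7 falls, and 1 and 0 interaction calls. Under that scaling the all-gene median was itself -0.16 for both drugs against Torin 1, and the share of all genes called was not counted. The hosts were read at very different levels. With vehicle RPL27A stood at log2 13.36 and RPL10 at 4.59, and RPL10 was detected on no R1881 array and 1 array of each other group. Whether probe range limited the host changes was not tested.

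**Figure D3:**
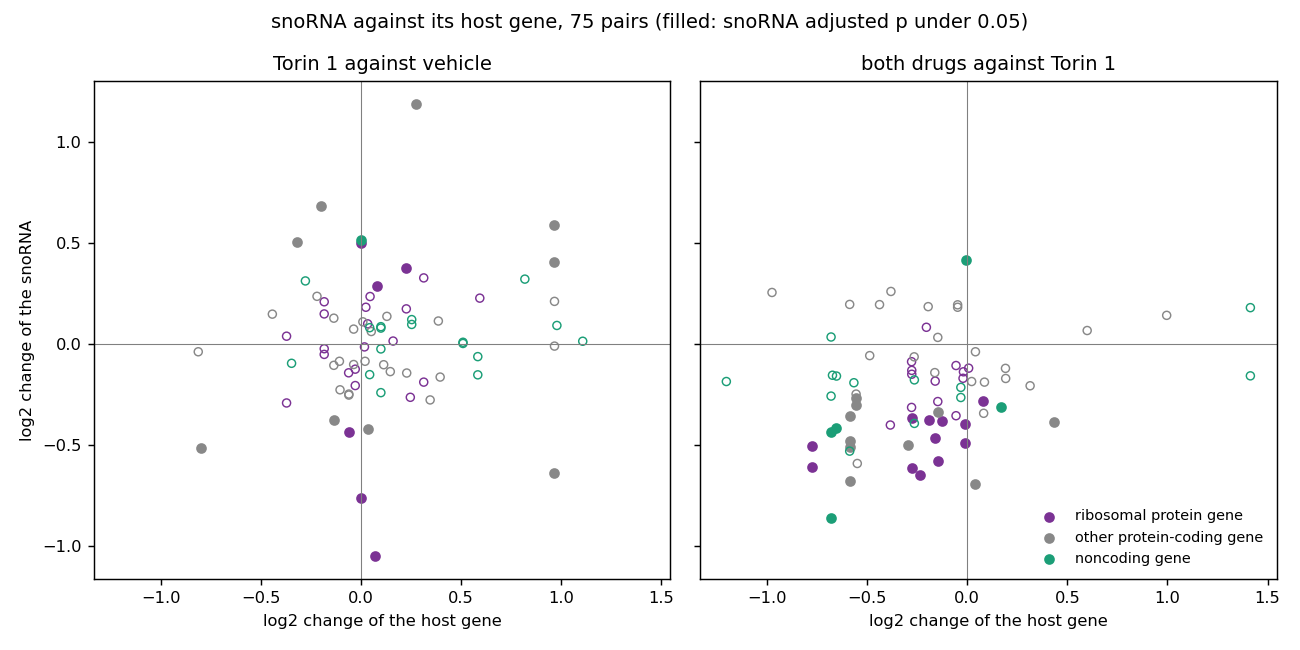
Log2 change of a snoRNA (vertical axis) against that of its host gene (horizontal axis) for 75 pairs with Torin 1 against vehicle (left) and both drugs against Torin 1 (right), coloured by host type; filled points are snoRNAs with an adjusted p under 0.05. On the left SNORD16 lies at -1.05 with its host at 0.069, and on the right the filled ribosomal protein pairs all lie below 0 on the vertical axis.

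Within 1 host the snoRNAs did not move as a block. TAF1D encodes a subunit of the factor that recruits RNA polymerase I, and its transcript, kept here as a host, rose 1.95-fold with Torin 1 (0.97 ± 0.11, adjusted p = 2.2e-05). SNORA18 stood at 8.03, 7.75 and 7.94 with vehicle, 7.42, 7.67 and 7.43 with R1881, 7.33, 7.22 and 7.25 with Torin 1, and 6.47, 6.61 and 6.69 with both drugs. It was highest with vehicle and lowest with both drugs, without overlap. SNORA18 fell 1.56-fold with Torin 1 (-0.64 ± 0.098, adjusted p = 0.00029), 1.32-fold with R1881 (-0.40 ± 0.098, adjusted p = 0.0054) and 2.49-fold with both drugs against vehicle (-1.32 ± 0.098, adjusted p = 7.9e-08). From the same transcript SNORA25 and SNORA32 rose with Torin 1 (0.59 and 0.41, adjusted p = 0.020 and 0.012), and SNORA8 (0.21) and SNORD6 (-0.011) did not pass. The SNORA25 rise was lost on leaving out replicate 2 of vehicle or of Torin 1 (adjusted p 0.073 to 0.088). That of SNORA32 was lost in the authors' own log2 values (adjusted p = 0.051). In RPL13A, SNORD33 fell with both drugs against Torin 1 (-0.37, adjusted p = 0.027) and SNORD35A, undetected with both drugs, was at least 1.37-fold lower (adjusted p = 0.0031), and SNORD32A (-0.13) and SNORD34 (-0.15) did not pass. The SNORD33 fall was lost on leaving out replicate 2 or 3 of Torin 1 or 1 or 3 of both drugs (adjusted p 0.060 to 0.11). It was also lost without background correction, with a larger background offset and in the authors' own log2 values. In SNHG1, SNORD31 fell in that comparison (-0.86) and SNORD30, undetected with both drugs, was at least 1.15-fold lower (adjusted p = 0.0044), and SNORD22 (0.034) and SNORD25 (-0.26) did not pass. The SNORD30 call was lost in the authors' own log2 values (adjusted p = 0.11). The other snoRNAs of these 3 hosts were singled out after their values were seen, and the differences within a host were not tested.

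**Figure D4:**
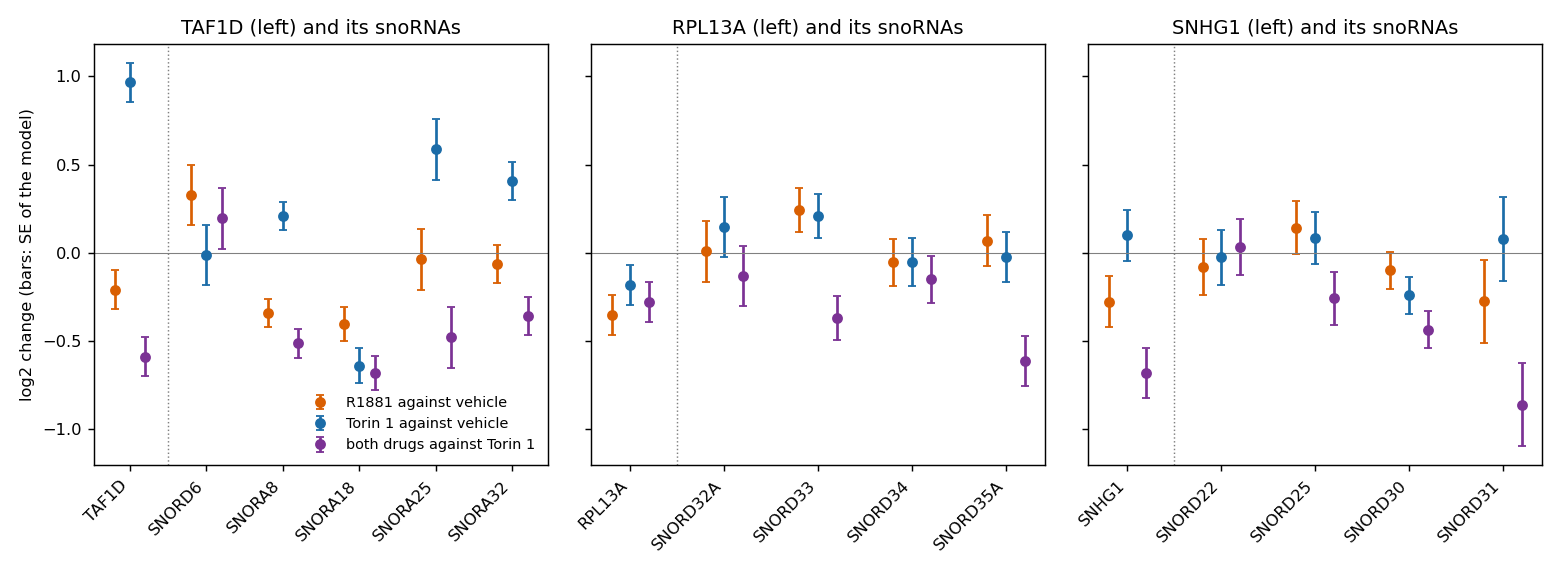
Log2 change with its SE (vertical axis) for 3 host genes, each at the left of its panel, and the kept snoRNAs from their introns, for R1881 and Torin 1 against vehicle and both drugs against Torin 1. With Torin 1 the TAF1D transcript is at 0.97, SNORA25 at 0.59 and SNORA18 at -0.64.

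The mRNAs of several proteins that bind snoRNAs fell with both drugs. All 4 genes of the box C/D core (FBL, the methyltransferase fibrillarin, NOP56, NOP58 and SNU13) fell with both drugs against R1881, with a median of -0.45 (background 22.3%), and 3 of 4 fell against Torin 1. NOP56 fell by 0.64 (SE 0.082, adjusted p = 2.9e-05) and FBL by 0.45 (SE 0.071, adjusted p = 0.00019) against R1881. Of the box H/ACA core (DKC1, the pseudouridine synthase dyskerin, NHP2, NOP10 and GAR1), 3 of 4 fell against R1881 (median -0.35) and 2 of 4 against Torin 1, and GAR1 did not pass against R1881 (-0.12). NHP2 fell by 0.53 (SE 0.080, adjusted p = 0.00012) and NOP10 by 0.43 (SE 0.075, adjusted p = 0.00034) against R1881. With R1881 alone 1 gene of each core rose and 1 fell: SNU13 and NOP10 rose by 0.29 each, FBL fell by 0.27 and DKC1 by 0.47. With Torin 1 alone 2 of the box C/D core and 1 of the box H/ACA core fell and none rose. Over all genes 26.3% fell with both drugs against Torin 1. With R1881 alone 15.8% rose and 21.5% fell, and with Torin 1 alone 16.2% rose and 15.7% fell. As each core has 4 genes, nothing is read from counts of 1 or 2.

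Of 15 assembly and transport genes, 1 rose and 6 fell with both drugs against R1881, where 23.1% of all genes rose and 22.3% fell, a background that holds for the next 3 lists too. WRAP53, which brings box H/ACA scaRNAs to Cajal bodies, fell by 1.33 (SE 0.18, adjusted p = 5.3e-05; detected on 1 of 3 both-drug arrays) and NOLC1, the nucleolar and Cajal body phosphoprotein, by 0.63 (SE 0.071, adjusted p = 9.8e-06). Of 15 genes of snoRNA trimming and decay, 1 rose and 6 fell, among them the exosome subunits EXOSC2 by 0.75 (SE 0.077, adjusted p = 4.2e-06) and EXOSC7 by 0.52 (SE 0.074, adjusted p = 7.1e-05). Of 7 genes of nonsense-mediated decay, which removes spliced SNHG transcripts, 2 rose and 1 fell in that comparison: the helicase UPF1 rose by 0.43 (SE 0.072, adjusted p = 0.00027) and SMG5 fell by 0.46 (SE 0.094, adjusted p = 0.0013). Of 14 other small noncoding RNAs picked by symbol (mostly spliceosomal, Y and similar RNAs), 2 rose and 1 fell. RNU4ATAC, a small nuclear RNA of the minor spliceosome, rose by 0.83 (SE 0.097, adjusted p = 1.4e-05). The fall was that of RNU105C, by its name a U105 snoRNA that the member rule does not catch. Undetected with both drugs, it was at least 1.14-fold lower (adjusted p = 0.0045).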

How the data were processed

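Per the labels, RNA of LNCaP cells was prepared with silica spin columns, labelled with biotin by the standard Illumina procedure and hybridized to 12 arrays. The authors deposited a table of signal intensity, neither background-subtracted nor normalized as its values show, and beside it a detection p-value for each probe per the file headers. A second table that the authors deposited holds log2 values, with its normalization not given in the sources used; it served as an alternative.

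Background was removed from the intensities by normexp (limma 3.58.1 in R 4.3.3), inferred from the detection p-values with an offset of 16, and values were put on the log2 scale and quantile normalized. Probes with detection p under 0.05 on at least 3 arrays were kept (20413 of 47323), and the brightest probe with exactly 1 gene symbol stood for each of 11517 genes. Gene names came from the platform annotation and RefSeq tables. One limma model with 4 group means (8 residual degrees of freedom, empirical Bayes) gave all contrasts, with Benjamini-Hochberg adjustment over all genes, called under 0.05. Where no array of a group detected a probe, "at least" folds use the lowest detected normalized level on each array. Exact permutation of 3 arrays against 3 cannot go below p = 0.1, so none was run. The number of arrays limits precision: the median SD of a member within a group was 0.135 to 0.16 log2. The fit was tested on simulated data.

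The members, the lists and the host pairs were chosen with earlier results of these data known. Named members are GAS5, SNHG1, up to 5 rises and 5 falls called in each of 4 two-group comparisons, and up to 3 each way in the interaction. Another 22 were singled out after their values were seen. Of the members the rule names, 1 is not reported here. The lowest Pearson correlation between arrays of 1 group was 0.992. Slides and scan dates were not used here. The alternatives covered background correction, scaling, probe filters, the model's prior, the replicate block and each array left out.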

Additional observations from a re-analysis of the deposited data

Results flagged for a closer look

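For 14 members the fitted response to R1881 differed between cells with and without Torin 1 by the model's interaction term (limma, adjusted p under 0.05), all in the negative direction. They are 12.1% of the members, where 7.08% of all genes were called negative and 7.87% positive. With median scaling 1 member was positive and 3 were negative, and the share over all genes was not counted under that scaling. The host genes among the 14 were SNHG7 (-0.92, adjusted p = 0.0012), SNHG4 (-0.72, adjusted p = 0.032), SNHG8 (-0.69, adjusted p = 0.0040) and SNHG15 (-0.51, adjusted p = 0.029), of which the other kept probe of SNHG15 gave -0.59. The snoRNAs of noncoding hosts were SNORA61 (-0.93, adjusted p = 0.023), SNORD80 of GAS5 (-0.62, adjusted p = 0.014), SNORD49A (-0.56, adjusted p = 0.026) and SNORD88B (-0.46, adjusted p = 0.036). Those of ribosomal protein genes were SNORD35A (-0.68, adjusted p = 0.037), SNORD33 (-0.61, adjusted p = 0.032), SNORA10 of RPS2 (-0.61, adjusted p = 0.031), SNORA3A (-0.59, adjusted p = 0.0024), SNORD36A of RPL7A (-0.57, adjusted p = 0.0090) and SNORD14B of RPS13 (-0.52, adjusted p = 0.0096), which was detected in the Torin 1 group alone and was not called with a larger normexp offset or in the authors' log2 table. SNORD14B was kept only through the group where it is high, so nothing is read from its interaction. The SNORD88B interaction contains the rise with R1881 that the detection rule favoured, so nothing is read from it either. SNORA3A, SNORD49A and SNORD35A were detected on no both-drug array and SNORD88B on no vehicle array, so their values are fitted differences against a group not above background, and their true size is not known. SNHG7, by its brightest probe, kept its call under all alternatives run. SNHG8, SNORD80, SNORD36A and SNORA3A lost it with median scaling alone (adjusted p 0.054, 0.072, 0.075 and 0.14). SNORA61 lost it on leaving out replicate 2 of R1881 or Torin 1 or replicate 1 of both drugs (adjusted p 0.052 to 0.057). The calls listed next were all lost with median scaling, and all but that of SNHG15 without background correction. The replicate block lost SNHG4, SNHG15, SNORA10, SNORD88B and SNORD35A, and the authors' log2 table SNORD33, SNORD88B, SNORD35A and SNORD49A. Without a detection filter SNHG4, SNORD33, SNORA10 and SNORD35A were lost. Cyclic loess lost SNORD35A and SNORD49A, and a larger normexp offset SNORD88B and SNORD35A. The same calls were also lost on leaving out any 1 of several arrays. For SNHG4 these were replicates 1 and 2 of vehicle, R1881 and Torin 1 and replicate 1 of both drugs (adjusted p 0.052 to 0.079). For SNHG15 they were replicates 1 and 2 of vehicle and Torin 1, 2 and 3 of R1881 and 3 of both drugs (0.051 to 0.071). For SNORD33 they were all arrays but R1881 replicate 1 and both drugs replicate 2 (0.051 to 0.076). For SNORA10 they were replicates 1 and 2 of vehicle, R1881 and Torin 1 and replicates 1 and 3 of both drugs (0.051 to 0.074). For SNORD88B they were replicates 2 and 3 of vehicle, 1 and 3 of R1881, 2 of Torin 1 and 1 and 2 of both drugs (0.056 to 0.088). For SNORD35A they were replicates 2 and 3 of vehicle, 1 and 3 of R1881, 2 of Torin 1 and 1 and 3 of both drugs (0.050 to 0.092). For SNORD49A they were replicate 1 of R1881, 1 and 2 of Torin 1 and 1 of both drugs (0.050 to 0.065).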

How the results depend on the processing

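The number of members called moved by more than 1.5 times in few settings. With R1881 against vehicle it was 16, and 29 with median scaling. In the interaction it was 14, 9 without background correction and 4 with median scaling. With both drugs it was 48 against R1881 and 47 against vehicle, and 30 and 31 when detection on all 12 arrays was asked for, which leaves 54 members to test. Leaving out 1 array gave 13 to 21 calls for R1881, 27 to 35 for Torin 1 (33 with all arrays), 35 to 51 for both drugs against R1881, 32 to 47 against Torin 1 (46 with all), 40 to 51 against vehicle and 6 to 17 in the interaction, which fell to 9 without vehicle replicate 2, 6 without Torin 1 replicate 2 and 7 without both drugs replicate 1. Apart from the smaller number of members tested, the cause of these moves was not tested. Over 46 named members and 6 contrasts (276 values), no called value changed sign under any alternative. Of 137 called values 95 stayed called throughout, and 28 were lost without at least 1 array. In the planned settings other than leaving out arrays, 93 comparisons with the main value lost a call and 84 gained one, and uncalled values changed sign in 44. No pairing of the samples by replicate number was visible (mean correlation of deviations -0.0032 for the same number and 0.0016 for different numbers). The own number gave the highest correlation for 4 of 12 arrays. These values do not settle whether a number marks a shared culture or day, which the labels do not say. With the replicate number as a block, 16, 32, 44, 42, 48 and 11 members were called in the order of the contrasts above (R1881, Torin 1, both drugs against R1881, Torin 1 and vehicle, interaction). Signal close to background limits what can be said of the dimmest snoRNAs.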
